A study of Rattus norvegicus with 90 samples.

Results

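The hearts of rats examined 24 h after a high dose of thioacetamide were compared directly with those examined 24 h after a low dose, without vehicle samples in the test. The samples were chosen by their labels (heart, 24 h, high or low dose), which gave 10 of the 90 samples in the study, 5 per dose. In each sample, 40071 of the 65166 listed targets were Ensembl transcripts, and 17642 of these had enough counts to be tested. The low dose was 25 mg/kg and the high dose 100 mg/kg, and another group of 5 rats received 3 ml/kg of saline as the vehicle.

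Poly-A-enriched mRNA of the heart, kidney, and liver was sequenced with paired 75-base reads 8 or 24 h after the injection, with 5 samples in each group of organ, dose, and time. All rats were male Sprague-Dawley animals bought at 10 weeks of age, carried a jugular vein catheter, and received a single intraperitoneal injection. The rats of the 8 h and 24 h groups were different animals with different feeding schedules, and the organs of 1 group came from the same rats. Whole hearts were powdered before RNA was isolated, so that all cell types of the heart contributed to each value, and fewer cells of a type cannot be told apart from less RNA per cell.

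Thioacetamide is an organosulfur compound that is used in animals mainly to injure the liver. It becomes toxic after oxidation to reactive metabolites by enzymes that are abundant in hepatocytes, and the kidney can be injured as well. The heart is not regarded as a primary target, and served in the study as an organ without severe injury. Cardiac muscle cells make up most of the mass of the heart, while endothelial cells, fibroblasts, and immune cells contribute much of its remaining RNA.

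The direct comparison of doses gave no transcript that passed both thresholds used for a call. These were a Benjamini-Hochberg adjusted p-value of no more than 0.01 in edgeR's quasi-likelihood test, and a change of at least 1.82-fold, which is 0.87 on the log2 scale. With 0 of 17642 transcripts called (0%), the smallest adjusted p-value was 0.0283. At an unadjusted p-value under 0.05 there were 1962 transcripts (11.1% of those tested), of which 939 were higher and 1023 lower at the high dose. DESeq2, with the same thresholds, called 32 transcripts (0.181% of the 17642), 16 higher and 16 lower. It gave no adjusted p-value for 2400 of the 17642, so its adjustment covered fewer transcripts than that of edgeR. The transcripts are given by identifier because no table used here pairs them with genes, and the heart label was therefore checked without marker genes. By Spearman correlation over 17472 transcripts, each of the 10 libraries was nearest to another heart library, with a lowest rho of 0.963 among hearts against a highest rho of 0.644 with any liver or kidney library.

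The libraries of both doses were of similar depth. Total estimated counts were 21598818 to 28904323 at the high dose (median 23797727) and 18384274 to 31250679 at the low dose (median 23548363), and the means did not pass an exact two-sided permutation test (p = 0.929). The smallest p-value that 5 samples against 5 can give in this test is 0.00794. The deposited tables also list 25095 genomic intervals, and the share of counts on them split the libraries by library number. At the low dose, libraries MS-62, MS-65, and MS-67 had 20.2%, 20.9%, and 20.6% of their counts on intervals, while MS-82 and MS-83 had 5.79% and 5.77%. At the high dose, MS-63 and MS-66 had 11.5% and 18.3%, and MS-84, MS-85, and MS-86 had 6.16%, 6.15%, and 7.97%. Thus 3 of 5 low-dose and 2 of 5 high-dose libraries were above 10%, and the dose groups overlapped (exact two-sided permutation p = 0.333, or 0.667 after Benjamini-Hochberg adjustment over 2 measures). Only transcripts entered the test. The totals above include the intervals. Counts on transcripts alone were 19877103 to 27123519 at the high dose and 17323883 to 24950516 at the low dose, a difference that was not tested. When the 2 levels of interval share (above or below 10%) were added as a term, the dose contrast again gave 0 calls, and the term itself gave 0 calls in edgeR with 1862 transcripts at an unadjusted p-value under 0.05. DESeq2 was not run for that term.

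**Figure D1:**
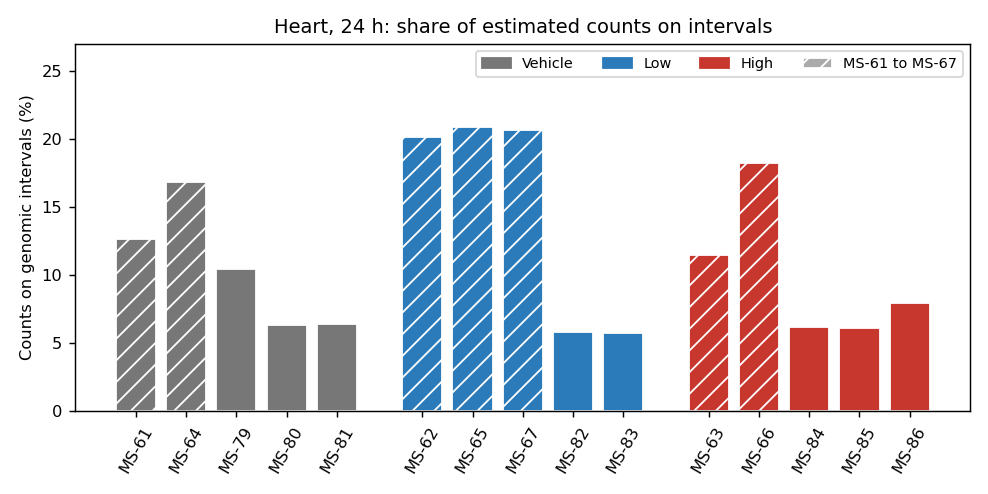
Percent of each library's estimated counts that fell on genomic intervals, for the 15 heart libraries at 24 h (bars, 1 per library; colors mark the dose and hatching the libraries MS-61 to MS-67). The 3 hatched low-dose libraries were at 20.2 to 20.9%, and the remaining low-dose libraries at 5.77 and 5.79%.

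Differences between the doses were small for most transcripts. The median absolute log2 fold change was 0.12, and 95% of transcripts were below 0.68. The median log2 fold change was -0.01, and the median standard error was 0.14. For 13524 transcripts (76.7%), the 95% interval of the log2 fold change lay entirely inside the limit of 1.82-fold in either direction. For the other 4118 it reached the limit, so that a difference of the size required for a call was not excluded by its interval at this depth and sample number.

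The precision followed abundance. In the least abundant tertile of transcripts, at 0.311 to 4.63 CPM (counts scaled to library size), the interval lay inside the limit for 43.6%. In the middle tertile this share was 90.3%, and in the most abundant tertile, above 20.7 CPM, it was 96.1%.

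A difference of at least 1.82-fold was seen for 476 transcripts (2.70%), 163 higher and 313 lower at the high dose. Most of them were of low abundance, with 380 in the least abundant tertile and a median of 1.31 CPM. Of the 476, 225 had an unadjusted p-value under 0.05 and 251 did not. The median standard errors of the log2 fold change were 0.37 and 0.87, respectively. The samples of the doses did not overlap for 59 of the 225 and for 2 of the 251. Over all 17642 tested, every high-dose sample was above every low-dose sample for 1.52%, and below for 1.24%. The split by the p-value of this same contrast favors an absence of overlap among the 225, so these counts are descriptions. The smallest adjusted p-value among the 476 was 0.0504 (edgeR with Benjamini-Hochberg adjustment).

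The direction of the small differences varied with abundance. Among transcripts at an unadjusted p-value under 0.05, 129 were higher and 298 lower in the least abundant tertile, 262 were higher and 391 lower in the middle tertile, and 548 were higher and 334 lower in the most abundant tertile. The median log2 fold changes of all transcripts in these tertiles were -0.07, -0.01, and 0.02. The same order was found with the interval share as a covariate (178 higher and 296 lower in the least abundant tertile, 632 and 369 in the most abundant). It was also found in the libraries MS-61 to MS-67 alone (123 and 179, against 314 and 210) and in the libraries MS-82 to MS-86 alone (137 and 164, against 364 and 173).

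By transcript length, 302 of the longest tertile were higher and 491 lower at an unadjusted p-value under 0.05. With the interval share as a covariate these counts were 446 and 450, in the libraries MS-61 to MS-67 alone 227 and 326, and in MS-82 to MS-86 alone, where more were higher, 262 and 231. In the shortest tertile, 284 were higher and 240 lower, and with the covariate 305 and 283.

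**Figure D2:**
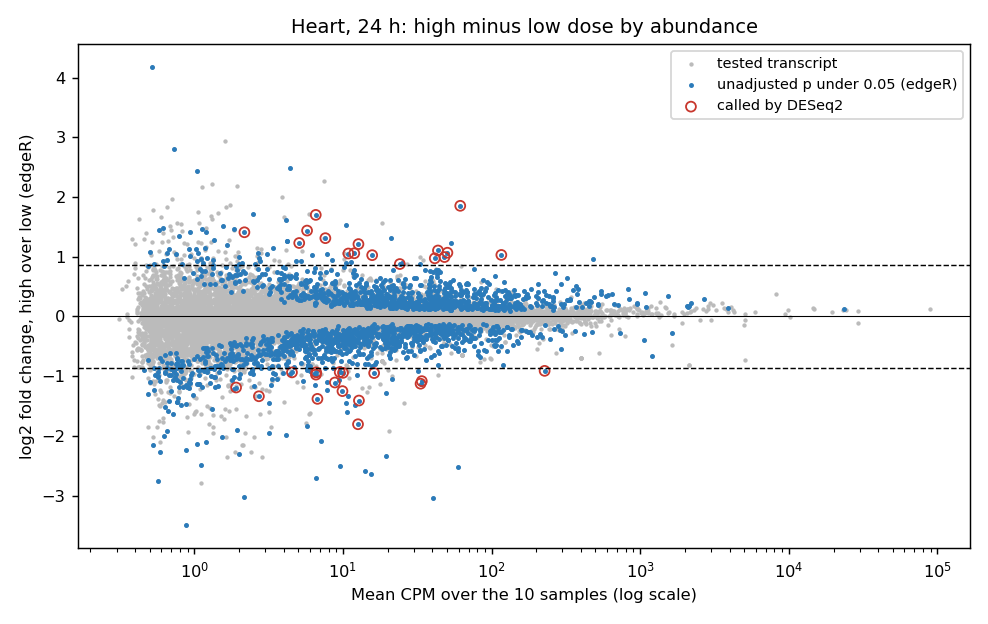
Log2 fold change of the high over the low dose (vertical axis) against mean CPM over the 10 heart samples at 24 h (horizontal axis, log scale), with 1 point per tested transcript (n = 17642). Blue points are the 1962 transcripts at an unadjusted p-value under 0.05 in edgeR, red circles the 32 called by DESeq2, and dashed lines the fold limit of 1.82; the spread narrows as abundance increases.

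The doses were also compared by whether the samples overlapped. For 268 transcripts (1.52% of those tested) every high-dose sample was above every low-dose sample, and for 219 (1.24%) every high-dose sample was below every low-dose sample. The 32 transcripts called by DESeq2 had absolute log2 fold changes of 0.88 to 1.86, with a median of 1.09. The doses did not overlap for 24 of them. All 32 had an unadjusted p-value under 0.05 in edgeR, and their edgeR adjusted p-values were 0.0504 to 0.158. Their mean abundance was 1.91 to 227.5 CPM, and no transcript of the 32 had a dose group with 0 counts in all libraries. Both sets of libraries gave the same direction for 32 of 32, which the choice by this contrast fixes for those without overlap, with a median difference of 1.35 on the log2 scale in MS-61 to MS-67 and 1.05 in MS-82 to MS-86.

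Since no transcript was called, the 10 transcripts with the smallest p-values are described without a claim that they changed. Of these, 5 were higher and 5 lower at the high dose, with absolute log2 fold changes of 0.40 to 1.25 and adjusted p-values of 0.0283 to 0.0504 (edgeR with Benjamini-Hochberg adjustment). Only 2 of the 10 were past the fold limit. Their mean abundance was 9.93 to 151.3 CPM. Because these transcripts were chosen by this contrast, the absence of overlap between doses in 10 of 10 is a description. The low-dose mean lay between the vehicle and high-dose means for 10 of 10, compared with 44.4% of the 17266 transcripts tested against the vehicle as well. The high-dose samples did not overlap the vehicle samples for 10 of 10, whereas the low-dose samples overlapped the vehicle samples for 9 of 10. The choice rests on the same high-dose and low-dose samples, so these counts are descriptions too. No share over all transcripts is given for the overlaps with vehicle. At 8 h, in other rats, the high-low difference had the same sign for 10 of 10. In the kidney and liver at 24 h it had the same sign for 8 and 5 of 10.

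The 2 higher and 2 lower transcripts with the smallest p-values are given sample by sample. ENSRNOT00000082733, a transcript of 4865 bases, was measured at 37.1, 35.3, 38.4, 32.8, and 33.8 CPM in the low-dose samples MS-62, MS-65, MS-67, MS-82, and MS-83. In the high-dose samples MS-63, MS-66, MS-84, MS-85, and MS-86 it was at 60.9, 54.6, 48.2, 56.2, and 48.8 CPM. The vehicle samples ranged from 25.9 to 32.03 CPM. All high-dose samples were above all low-dose samples, and all low-dose samples were above all vehicle samples. The high-low difference was 0.60 on the log2 scale (standard error 0.0783, 95% interval 0.42 to 0.77, 1.51-fold), with an adjusted p-value of 0.0504 (edgeR). In the libraries MS-61 to MS-67 alone the difference was 0.64, and in MS-82 to MS-86 alone 0.62.

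ENSRNOT00000010811, of 2908 bases, was at 30.3, 28.5, 29.7, 31.6, and 31.1 CPM in the low-dose samples, in the same order of libraries. In the high-dose samples it was at 55.1, 61.1, 45.9, 52.1, and 38.8 CPM. The vehicle samples were at 20.8 to 33.5 CPM, the highest of them being MS-81. The high-dose samples lay above all others, while the low-dose and vehicle samples overlapped. The high-low difference was 0.74 on the log2 scale (standard error 0.108, 95% interval 0.50 to 0.98, 1.67-fold), with an adjusted p-value of 0.0504 (edgeR). It was 0.98 in MS-61 to MS-67 alone and 0.54 in MS-82 to MS-86 alone.

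ENSRNOT00000005383, of 1936 bases, had the smallest p-value in the comparison. It was at 55.1, 53.9, 49.4, 51.5, and 56.4 CPM in the low-dose samples, and at 39.2, 38.001, 39.1, 36.1, and 37.4 CPM in the high-dose samples. The vehicle samples were at 66.5 to 70.8 CPM except for MS-61, at 52.7 CPM. The high-dose samples were below all low-dose and vehicle samples, and MS-61 fell within the range of the low dose. The high-low difference was -0.49 on the log2 scale (standard error 0.0530, 95% interval -0.61 to -0.37, 1.40-fold), with an adjusted p-value of 0.0283 (edgeR). It was -0.45 and -0.52 within the 2 sets of libraries.

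ENSRNOT00000080465, of 5506 bases, was at 176.8, 171.7, 164.5, 170.8, and 188.8 CPM in the low-dose samples, and at 132.5, 123.2, 136.7, 118.7, and 127.3 CPM in the high-dose samples. The vehicle samples were at 178.9 to 203.5 CPM. The high-dose samples were again separate from the others, and the low-dose and vehicle samples overlapped. The high-low difference was -0.45 on the log2 scale (standard error 0.0571, 95% interval -0.58 to -0.33, 1.37-fold), with an adjusted p-value of 0.0504 (edgeR). It was -0.42 and -0.49 within the 2 sets of libraries. None of the 4 transcripts reached the fold limit. In DESeq2 their adjusted p-values were 1.11e-08, 4.36e-07, 1.55e-13, and 1.38e-11, in the order described. The fold limit alone kept them from a call by DESeq2.

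**Figure D3:**
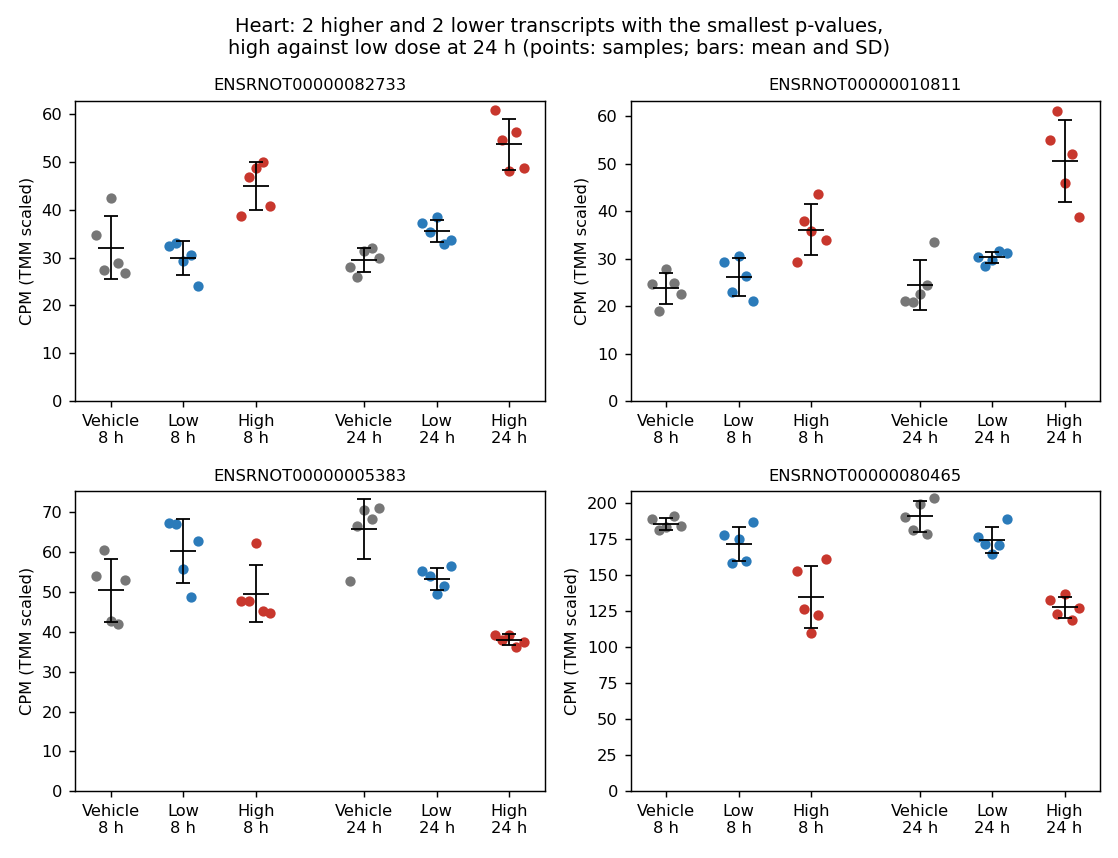
CPM of the 4 transcripts in each heart sample at 8 and 24 h by dose (points), with the mean and SD of each group of 5 (bars); the 8 h and 24 h samples were scaled separately. At 24 h the high-dose samples of each transcript were separate from the low-dose samples, for example 36.1 to 39.2 against 49.4 to 56.4 CPM for ENSRNOT00000005383.

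The same contrast at 8 h asked whether the dose difference was present in other rats at the earlier time. At 8 h, 1 of 17596 transcripts was called (0.00568%), which was higher at the high dose. Its log2 fold change was 1.26 at 8 h and 0.65 at 24 h (adjusted p = 0.274 in edgeR at 24 h), and its samples overlapped between doses at 24 h. Leaving out any 1 of 8 of the 10 libraries removed this call, and leaving out MS-71 gave 2 calls. The difference between the times was tested as an interaction over 20 samples. No transcript of 18640 was called (0%; edgeR, smallest adjusted p = 0.729), with 1214 at an unadjusted p-value under 0.05, and DESeq2 called 0 as well.

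The 1937 transcripts that were at an unadjusted p-value under 0.05 at 24 h and tested at 8 h had the same direction at 8 h for 1359 (70.2%). Over all 17257 transcripts tested at both times, this share was 53.8%. An unadjusted p-value under 0.05 at 8 h was found in the same direction for 343 of the 1937 and in the opposite direction for 21, compared with 1002 and 367 over all transcripts. The median 8 h difference in the direction seen at 24 h was 0.10 on the log2 scale. The transcripts called by DESeq2 at 24 h had the same direction at 8 h for 29 of 32, with a median of 0.53 and 17 at an unadjusted p-value under 0.05 in that direction. At 8 h the 4 transcripts differed by 0.59, 0.47, -0.28, and -0.35 on the log2 scale, in the order described above, and the dose groups overlapped at 8 h for ENSRNOT00000010811, ENSRNOT00000005383, and ENSRNOT00000080465.

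Each dose was set beside the vehicle to place the low-dose samples. These comparisons share samples with the direct one and with each other, so their values are side by side and give no independent support. At the high dose, 162 of 17574 transcripts were called against the vehicle (0.922%), 119 that rose and 43 that fell. At the low dose, 0 of 17707 were called (0%) by edgeR, with 1624 at an unadjusted p-value under 0.05, and DESeq2 called 8. The count of 162 was 92 without either of the vehicle libraries MS-64 and MS-79, and 94 without MS-61, and it fell by 59 without the high-dose library MS-66.

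Of the 162 transcripts, 159 were tested in all 3 comparisons. Their low-dose mean lay between the vehicle and high-dose means for 158 (99.4%), compared with 44.4% of the 17266 transcripts tested in all 3. The choice by a large difference between vehicle and high dose favors a low-dose mean between them. The 17266 are no like background, since their median difference of high against vehicle was 0.14 on the log2 scale. For the 159, the median log2 difference in the direction of the high-dose change was 1.18 for high against vehicle. It was 0.61 for low against vehicle and 0.62 for high against low. For the 117 that rose, these medians were 1.20, 0.62, and 0.60, and for the 42 that fell, 1.09, 0.44, and 0.71. In the direct comparison, 115 of the 159 had an unadjusted p-value under 0.05, compared with 1926 of the 17266. The doses did not overlap for 57 of the 159, compared with 482 of the 17266. None of the 159 was called in the direct comparison, and the smallest adjusted p-value was 0.0504 (edgeR). In the low-dose comparison with vehicle, 120 of the 159 had an unadjusted p-value under 0.05, compared with 1592 of the 17266. The choice of the 159 used samples of both comparisons and favors these counts.

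**Figure D4:**
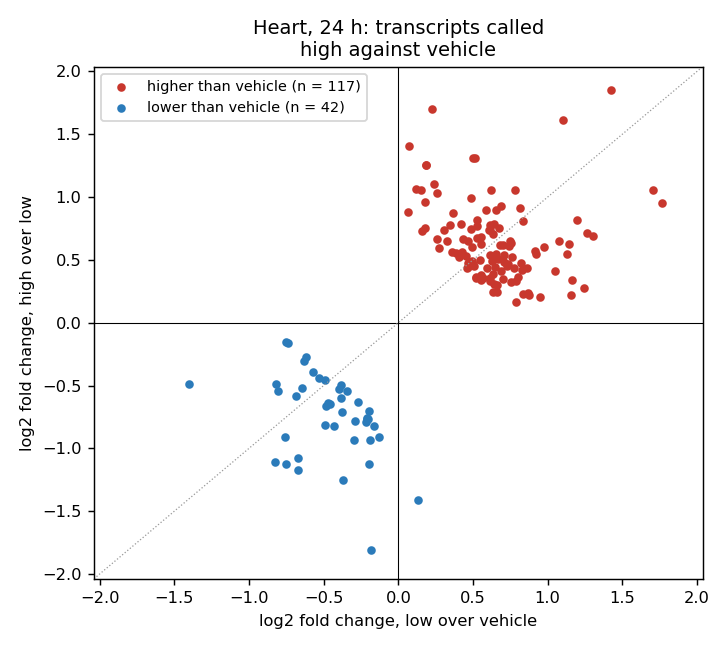
Log2 fold change of high over low (vertical axis) against low over vehicle (horizontal axis) in the heart at 24 h, for the 159 transcripts called in the high-dose comparison with vehicle (red, 117 higher; blue, 42 lower; the dotted line marks equal steps). Both steps share the low-dose samples and the transcripts were chosen by their sum; the median steps were 0.61 and 0.62.

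The 4 transcripts were distributed over these steps as follows. ENSRNOT00000082733 and ENSRNOT00000010811 rose at the high dose against vehicle by 0.87 and 1.05 on the log2 scale (adjusted p = 0.000336 and 0.00240, edgeR), the former just above the fold limit. At the low dose they were higher than vehicle by 0.27 and 0.31, which did not pass the test. ENSRNOT00000005383 and ENSRNOT00000080465 differed from vehicle by -0.79 and -0.58 at the high dose, with adjusted p-values of 0.000433 and 0.000336 (edgeR) but below the fold limit. At the low dose they differed from vehicle by -0.30 and -0.13.

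The dose contrast of the heart was compared with those of the kidney and liver of the same rats. High against low dose at 24 h gave 72 calls of 18844 transcripts in the kidney (0.382%) and 1128 of 17101 in the liver (6.6%). The 95th percentile of the absolute log2 fold change was 0.68 in the heart, 0.97 in the kidney, and 1.29 in the liver. The kidney count varied from 13 to 166 when 1 library was left out. Leaving out MS-35 gave the 166, and leaving out any other of the 10 gave 47 or fewer. The liver count was 711, 629, 688, and 653 without MS-2, MS-7, MS-6, and MS-26, respectively.

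The difference between organs was tested directly as an interaction over 20 samples, in a fit that does not use the shared rats. The high-low difference differed between heart and kidney for 67 of 20460 transcripts (0.327%), being higher in the heart for 19 and lower for 48. Of the 63 also tested in each organ alone, 60 had the larger absolute change in the kidney, with medians of 1.32 in the kidney and 0.12 in the heart on the log2 scale. The heart-kidney count was 144 without MS-35 and 32 to 62 without any other library. Between heart and liver the difference was found for 1285 of 19709 transcripts (6.52%), and 1213 of the 1247 tested in each organ alone had the larger change in the liver (medians 0.77 and 0.11). The count of 1285 was 841 without MS-7 and 849 without MS-26. Both lists were chosen by the difference between organs, which favors a large change in either organ. Over all transcripts tested, the median absolute log2 fold change was 0.12 in the heart, 0.20 in the kidney, and 0.32 in the liver. The counts of 60 and 1213 are therefore descriptions. A block by library number, which the labels do not tie to rats, was added after seeing the data. It gave 4 heart-kidney calls (24 for the same samples without it) and 656 heart-liver calls (1598 without it).

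Transcripts called in the other organs were then followed in the heart. Of the 72 called in the kidney, 61 were tested in the heart, and 42 had the same direction there (68.9%, compared with 52.5% of the 16364 transcripts tested in both). Their median log2 fold change in the direction of the kidney was 0.10 in the heart and 1.5 in the kidney. In the heart, 14 of the 61 had an unadjusted p-value under 0.05 (22.95%, compared with 10.99%). For 12 of these the direction was the same (19.7% of the 61, compared with 6.54% of the 16364). Of the 1128 called in the liver, 871 were tested in the heart, and 452 had the same direction (51.9%, compared with 7690 of all 15379). Their median in the direction of the liver was 0.01 in the heart and 1.18 in the liver. An unadjusted p-value under 0.05 was found in the heart for 177 (20.3%, compared with 10.9%), and in the same direction for 12.2%, compared with 5.61% of the 15379. No transcript of either list was called in the heart.

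**Figure D5:**
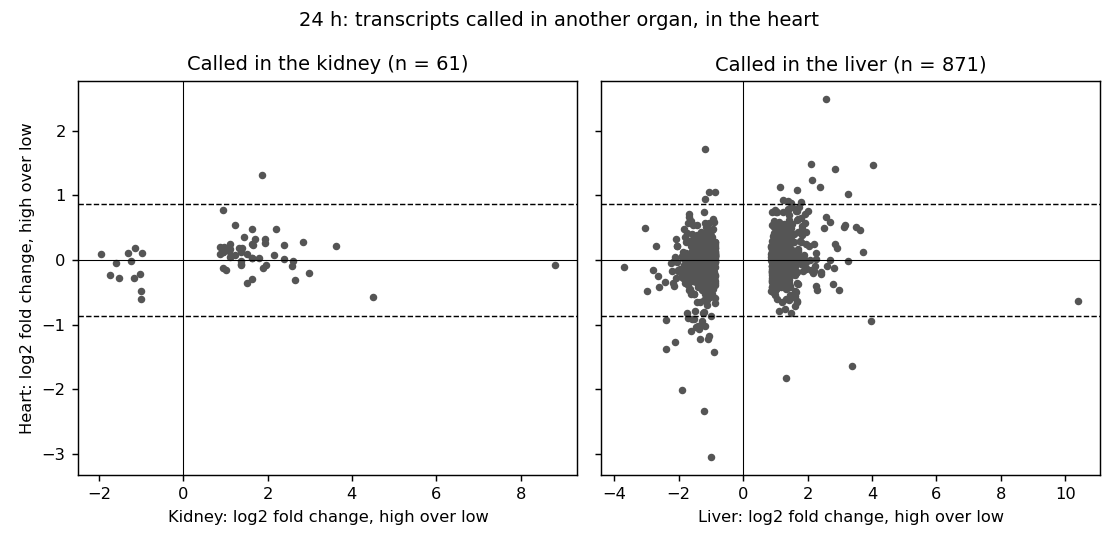
Log2 fold change of the high over the low dose at 24 h in the heart (vertical axis) against that in the kidney (left, 61 transcripts called in the kidney) and the liver (right, 871 called in the liver), with dashed lines at the fold limit of 1.82. The points spread widely along the horizontal axes and lie near 0 in the heart, where their medians in the direction of the other organ were 0.10 and 0.01.

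The named transcripts differed between organs in their own way. ENSRNOT00000005383 was lower at the high dose in the heart (-0.49) and higher in the kidney (0.65), and the difference between the organs was -1.12 on the log2 scale (adjusted p = 0.000965, edgeR interaction). In the kidney its low-dose samples were at 23.5 to 38.9 CPM and its high-dose samples at 40.3 to 49.9 CPM, with the high dose above the low dose and no overlap (adjusted p = 0.0411 in edgeR, not called). ENSRNOT00000080465 rose in the liver by 1.01 (adjusted p = 0.000827, edgeR), from 8.24 ± 0.455 CPM at the low dose to 16.4 ± 2.31 CPM at the high dose (mean ± SD, 5 samples each), and differed between heart and liver by -1.43 (adjusted p = 1.49e-06). ENSRNOT00000082733 differed between heart and liver by 0.85 (adjusted p = 0.00827, edgeR interaction), with -0.24 in the liver and 0.02 in the kidney.

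ENSRNOT00000010811 was higher at the high dose in all 3 organs. It rose in the liver by 1.24 on the log2 scale (adjusted p = 0.00125, edgeR), from 10.5 ± 2.49 CPM at the low dose to 24.5 ± 3.33 CPM at the high dose (mean ± SD, 5 samples each). In the kidney it was at 863.0 to 1359 CPM at the low dose and 1411 to 2268 CPM at the high dose, without overlap, with a difference of 0.52 (adjusted p = 0.150, edgeR) that was not called. The difference between heart and liver was -0.47 (adjusted p = 0.130, edgeR interaction) and that between heart and kidney 0.24 (adjusted p = 0.745, edgeR interaction).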

How the data were processed

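Sample groups came from the GEO labels, and library numbers in the titles served as replicate names. Per the labels and the methods of the study, the authors quantified reads with kallisto (version 0.42.2 and build Rnor_6.0 in the submitters' processing notes) and deposited an estimated count and a TPM for each target. Estimated counts are not normalized. TPM values are scaled by target length and to the library total. All 90 samples were read, and 0 columns were left unmapped. Genomic intervals were left out of the tests. Estimated counts of transcripts were rounded to whole numbers and tested in R 4.3.3 with edgeR 4.0.16 (default low-count filter, TMM scaling, quasi-likelihood test) and Benjamini-Hochberg adjustment over all transcripts tested. CPM values are scaled by TMM within an organ and time over its 3 dose groups, except mean CPM over the 10 samples, which is scaled over those 10. Called transcripts had an adjusted p-value up to 0.01 together with a fold change, on the natural log scale and in either direction, of 0.60 or larger. The study applied these numbers to a q-value and an effect size of another tool on genes. Interactions required the adjusted p-value alone. DESeq2 1.42.0, limma 3.58.1 on TPM values after addition of 1 or 0.1 and log2 transformation, other filters and scalings, and single libraries left out were alternatives. The tests were run first on simulated data. Exact permutation tests used scipy 1.17.1.

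The samples, lists, and tests were chosen with earlier results of these data known. Transcripts to be named were the called ones of at least 2 CPM without overlap between doses or, with fewer than 5 called, the 10 with the smallest p-values. Of these, 2 higher and 2 lower are printed by identifier, since gene symbols were not paired with transcripts here. Pathway lists, cell type markers, sums per gene, and sequences were not used for the same reason. Replicates within a group are separate rats per the methods, and the p-values within an organ measure the spread between them. The interactions between organs treat organs of the same rats as independent samples, so their p-values do not measure the spread between separate rats. Reads of transcripts of 1 gene overlap in sequence, so the division of counts among them is an estimate of the quantification. The 10 heart libraries of the dose contrast each agreed within 1 count with any other library for at most 3.67% of transcripts. Of all 4005 pairs of the 90 libraries, 1 pair did so for 99.96%, namely MS-1 (labelled liver, 24 h, vehicle) and MS-9 (labelled liver, 8 h, low dose), which appear to be 1 library under 2 labels. Neither entered a test, and MS-1 entered the CPM scaling of the liver at 24 h.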

Additional observations from a re-analysis of the deposited data

Results flagged for a closer look

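A sample far from the other 4 was searched for in 60 groups of 5 samples, made up of 48 groups of values of the 4 named transcripts and 12 groups of library measures of the hearts at 24 h. There were 5 such samples, all for transcripts. Chance gives about 1 in 20 groups. ENSRNOT00000010811 was at 33.5 CPM in the heart vehicle library MS-81 at 24 h, against 20.8 to 24.4 in the others, and at 2268 CPM in the high-dose kidney library MS-36, against 1411 to 1602. ENSRNOT00000005383 was at 52.7 CPM in the heart vehicle library MS-61 at 24 h, against 66.5 to 70.8, and at 62.1 CPM in the high-dose heart library MS-74 at 8 h, against 44.7 to 47.8. ENSRNOT00000080465 was at 3.60 CPM in MS-1, labelled liver, vehicle, 24 h, against 5.71 to 6.43 in the others. The counts of MS-1 differed by no more than 3 on any target from those of MS-9, which is labelled liver, low dose, 8 h, so the label of MS-1 is in doubt.

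The high-low difference at 24 h was not the same in all organs by the edgeR interaction test. It differed between heart and kidney for 67 transcripts and between heart and liver for 1285, in fits that do not use the shared rats. Among the named transcripts, the heart minus kidney difference was -1.12 for ENSRNOT00000005383, and the heart minus liver difference was 0.85 for ENSRNOT00000082733 and -1.43 for ENSRNOT00000080465, all on the log2 scale.

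Genomic intervals were outside the tests. The share of counts on them was above the highest vehicle value of 16.8% in the low-dose libraries MS-62 (20.2%), MS-65 (20.9%), and MS-67 (20.6%) and in the high-dose library MS-66 (18.3%).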

How the results depend on the processing

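For the heart at 24 h, high against low dose, 10 of 12 alternatives with all 10 libraries gave 0 calls, including the interval share as a covariate, all 15 samples in the fit, and limma on TPM. Dropping the fold limit alone, counted among these, reuses the main fit. It had to give 0, since the smallest adjusted p-value there was 0.0283 (edgeR). The 12 with fewer libraries also gave 0 (0 to 0 with 1 left out), but a count of 0 cannot fall and fewer libraries make calls less likely, so they say nothing about stability. DESeq2 gave 32, and an adjusted p-value of 0.05 without a fold limit gave 1. Transcripts at an unadjusted p-value under 0.05 were 1316 to 2514. The 4 named log2 fold changes kept their sign in all 22 alternatives, at 0.54 to 0.65, 0.54 to 0.98, -0.52 to -0.45, and -0.49 to -0.42. For the 12 with fewer libraries the sign was fixed by the choice of these transcripts, whose doses did not overlap. DESeq2 gave 23 calls in the heart at 8 h, 311 in the kidney, 286 for high and 8 for low against vehicle, 267 for heart against kidney, and 2471 for heart against liver. The interval share as a covariate gave 0 in the heart at 8 h, and no low-count filter gave 43 for heart against kidney. The cause was not tested. With 1 library left out, calls were 0 to 2 in the heart at 8 h, 13 to 166 in the kidney, 629 to 1455 in the liver, 92 to 175 for high and 0 to 0 for low against vehicle, 0 to 0 between times, 32 to 144 for heart against kidney, and 841 to 1891 for heart against liver. The high minus low difference of mean total counts, intervals included, was -277527 and ranged from -1.939e+06 to 1.277e+06. That of the interval share was -4.65 percentage points, from -6.87 to -3.08. The 2-level interval share, the sets of libraries, and the covariate in the other comparisons were chosen after seeing the data. Sums per gene could not be made. The library numbers in the titles are unique to a sample, and the labels do not tie them to a rat, but the number of a heart less 30 or 60 belongs to a kidney or liver of the same dose and time for 8 and 9 of the 10 hearts. In a replicate block by these numbers, added after seeing the data, heart against kidney gave 4 calls (24 for the same samples without the block) and heart against liver 656 (1598 without it). The deviations of paired samples from their group means correlated at -0.00845 to 0.130 for the kidney and 0.0248 to 0.106 for the liver, over 0.1 for 1 pair in each, and a heart correlated best with its own number for 5 of 8 and 9 of 9 pairs. This is a hint of pairing from the data, not from the design. The median standard error in the heart at 24 h was 0.30 in the least abundant tertile of transcripts and 0.08 in the most abundant. The cause of this was not tested.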
